A study of Ambystoma mexicanum with 5 samples.

Results

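*Emp1*, *Tnfaip2* and *S100a10* are 3 genes for membrane or membrane-linked proteins that were counted at a higher level in posterior than in anterior dermal cells of the uninjured axolotl forelimb. They are 3 of the 99088 genes in the count table and carry the identifiers AMEX60DD029166 (*Emp1*), AMEX60DD011094 (*Tnfaip2*) and AMEX60DD014975 (*S100a10*). They were chosen because the study lists them as enriched in posterior cells of these libraries and because their posterior replicates lay close together. Their difference between positions, and the closeness of their posterior replicates, are therefore given as a description, and their calls and p-values in the fits below, printed beside the share of all genes called, support nothing. All 3 passed the filter on low counts, and each had at least 410 counts in every library.

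The study compared dermal connective tissue cells of the lower arm in 2 anterior and 3 posterior bulk RNA-sequencing libraries. Every animal, in both positions, carried a transgene with a mouse *Prrx1* element that drives nuclear TFP and the inducible recombinase ERT2-Cre-ERT2, together with a Caggs loxP-GFP-loxP-mCherry reporter. Embryos of this line had received 4-OHT (4-hydroxytamoxifen), which switches cells with *Prrx1* enhancer activity, and their descendants, permanently to mCherry. The axolotls were 12 cm long and uninjured, and each replicate pooled 8 of them, or 16 lower arms. Anterior and posterior skin pieces, with a strip between them left out, were dissociated and sorted for mCherry. The study did not collect sex, gives age only as an upper bound for all of its axolotls, and does not say whether an anterior and a posterior replicate with the same number came from the same animals. The p-values below then measure the spread between these pools.

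EMP1 belongs to a family of small proteins that cross the membrane 4 times and that includes PMP22 and, more distantly, the claudins of tight junctions. It was named from epithelial cells. TNFAIP2 is a cytosolic protein related to a subunit of the exocyst, the complex that tethers vesicles to the plasma membrane. In mammals its gene is induced by tumour necrosis factor, and the protein promotes thin membrane bridges between cells. S100A10 is an S100 protein that no longer binds calcium. It pairs with annexin A2 on the inner face of the plasma membrane, where the complex meets the cortical actin, and at the cell surface the complex binds plasminogen. In mammals, S100A10 and annexin A2 are abundant in many epithelia as well as in fibroblasts and endothelium.

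Libraries held 44317956 to 59062548 counts. A total of 20875 genes passed the filter and were fitted together with edgeR's quasi-likelihood test, and 53 of them (0.254%) passed a false-discovery rate of 0.01 with Benjamini-Hochberg adjustment. Of these, 25 (0.12% of the genes tested) were higher in posterior cells. In the fit with the DESeq2 Wald test, 1.4% passed. Levels are given as CPM, read counts relative to library size, with library sizes adjusted by TMM, a method that assumes that most genes are unchanged. QuantSeq libraries sample the 3′ end of each transcript, so the number of reads does not grow with transcript length and levels of different genes can be set side by side as CPM. In bulk samples, fewer cells that express a gene and less RNA per cell cannot be told apart.

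*Emp1* had 545 and 661 counts in anterior replicates 1 and 2, and 3584, 3547 and 3846 counts in posterior replicates 1, 2 and 3. As normalized levels these were 12.2 and 12.9 CPM in anterior cells and 61.1, 60.6 and 71.5 CPM in posterior cells. The positions did not overlap, and the lowest posterior library stood far above both anterior ones. The mean was 12.6 ± 0.557 CPM (SD over 2 libraries) in anterior and 64.4 ± 6.18 CPM (SD over 3 libraries) in posterior cells. The log2 fold change, posterior over anterior, was 2.36 with a standard error (SE) of 0.19, or 5.13-fold. Taken library by library, the 6 ratios of a posterior to an anterior library ran from 4.68 to 5.88. Posterior replicate 3 was the highest for *Emp1*, whereas the other 2 posterior libraries were almost the same.

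*Tnfaip2* was the least abundant of the 3 genes. It had 410 and 475 counts in anterior pools and 2553, 2313 and 2057 counts in posterior pools. The levels were 9.15 and 9.30 CPM in anterior and 43.5, 39.5 and 38.3 CPM in posterior cells. Here posterior replicate 1 was the highest and posterior replicate 3 the lowest, the reverse of the order seen for *Emp1* at these 2 libraries. The means were 9.22 ± 0.111 CPM (SD over 2 libraries) and 40.4 ± 2.75 CPM (SD over 3 libraries), with a log2 fold change of 2.13 (SE 0.21), or 4.38-fold. The 6 ratios between single libraries ran from 4.11 to 4.76. The positions again did not overlap.

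*S100a10* was already abundant in anterior cells. It had 13218 and 15777 counts in anterior pools and 27554, 28778 and 28239 counts in posterior pools. The levels were 295 and 309 CPM in anterior and 470, 491 and 525 CPM in posterior cells. All posterior libraries lay above both anterior libraries, by a smaller factor than for *Emp1* and *Tnfaip2*. The means were 302 ± 9.98 CPM (SD over 2 libraries) and 495 ± 28.0 CPM (SD over 3 libraries), with a log2 fold change of 0.71 (SE 0.11), or 1.64-fold. The 6 ratios between single libraries ran from 1.52 to 1.78, which did not reach the lowest ratio of either other gene.

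**Figure D1:**
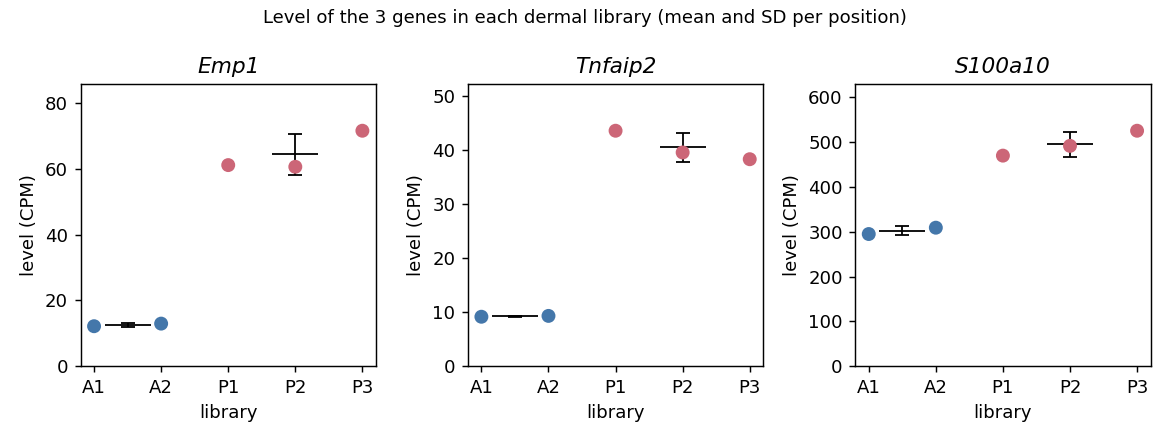
Level of *Emp1*, *Tnfaip2* and *S100a10* in CPM (linear axes that start at 0) in the anterior libraries A1 and A2 (blue) and the posterior libraries P1, P2 and P3 (red). Black marks give the mean and SD of each position. The anterior means of 12.6, 9.22 and 302 CPM lie below every posterior library of the same gene.

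All 3 genes therefore had non-overlapping positions, a pattern seen with posterior cells higher in 10.5% of the 20875 genes tested. Of the 3, edgeR called *Emp1* and *Tnfaip2* at a false-discovery rate of 0.01 and did not call *S100a10*, beside 0.12% of all genes tested that passed as higher in posterior cells. The genes were picked on this same comparison, so nothing is read from that count. It was 3 of 3 with DESeq2 (0.738% of all genes higher in posterior cells in that fit), with limma-voom (0.144%, of 0.354% called in either direction) and without the filter on low counts (0.61%, of 1.22%). In a fit with replicate numbers as blocks it was again 2 of 3, a fit where 0.623% of all genes passed, 0.326% as higher and 0.297% as lower in posterior cells. Replicate 3 exists only for posterior cells, so its block takes up that library, here and wherever this fit is quoted below. The position term then rests on the libraries numbered 1 and 2, and the study does not state that these are pairs. The count was 0 of 3 with posterior replicate 1, 2 or 3 left out, fits in which 5, 2 and 3 genes passed among all genes. With either anterior library left out, 1 anterior library remained, and the count is not given.

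The size of each difference moved little between fits. Over the 5 fits that each left out a library, the log2 fold change was 2.29 to 2.41 for *Emp1*, 2.08 to 2.18 for *Tnfaip2* and 0.68 to 0.76 for *S100a10*. Over the other 7 alternatives it was 2.28 to 2.38, 2.13 to 2.17 and 0.67 to 0.73 in the same order. For each gene all 12 alternatives stayed within 1 SD of its replicates on the log2 scale, which was 0.12 for *Emp1*, 0.08 for *Tnfaip2* and 0.07 for *S100a10*. The genes were chosen for close posterior replicates, and the shifts and the SD come from the same libraries. Nothing is therefore read from this closeness.

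**Figure D2:**
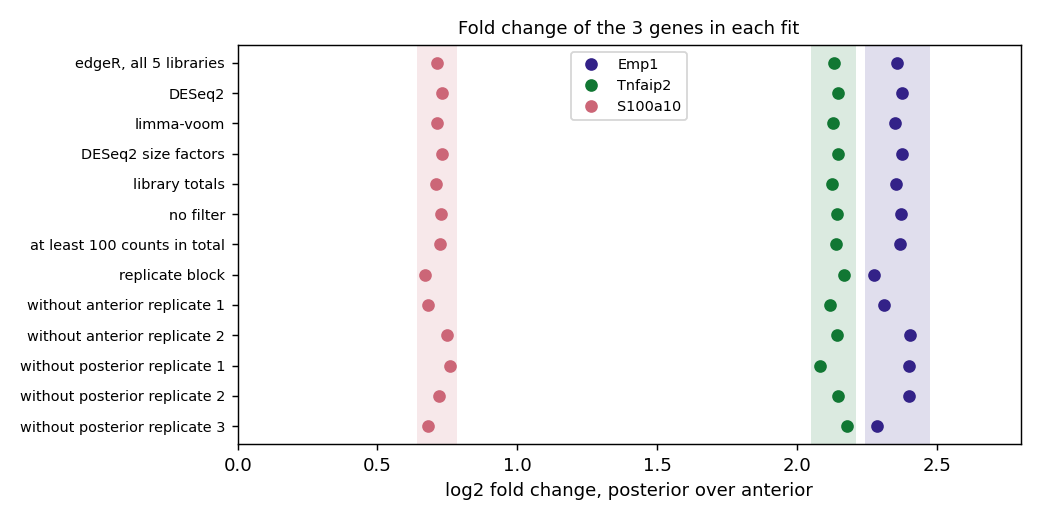
Log2 fold change (x axis, posterior over anterior) of each gene in the edgeR fit of all 5 libraries and in 12 alternatives (y axis). Shaded bands span 1 SD of the replicates to each side of the first value (2.36 for *Emp1*, 2.13 for *Tnfaip2*, 0.71 for *S100a10*), and every point lies inside its band.

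The 3 genes hold different places among all genes. In anterior cells the level of *Tnfaip2* was at percentile 63.3 of the genes tested, that of *Emp1* at 69.4 and that of *S100a10* at 98.0. In posterior cells the percentiles were 87.7, 91.8 and 98.6. Counted in CPM and not as a ratio, *S100a10* had the largest difference of the 3, at 194 CPM between the means, against 51.8 CPM for *Emp1* and 31.2 CPM for *Tnfaip2*. By log2 fold change, 683 of the genes tested (3.27%) exceeded *Emp1*, 779 (3.73%) exceeded *Tnfaip2* and 2875 (13.8%) exceeded *S100a10*. Most of these were scarce transcripts. Among the 7723 genes with a mean of at least 10 CPM in either position, 11 exceeded *Emp1*, 15 exceeded *Tnfaip2* and 221 exceeded *S100a10*. The mean of *Tnfaip2* reached 10 CPM only in posterior cells. The 3 genes were chosen on this same comparison, so nothing is read from these ranks.

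The closeness of the posterior replicates was not extreme among genes of these levels. The coefficient of variation over the posterior libraries was 9.60% for *Emp1*, 6.80% for *Tnfaip2* and 5.65% for *S100a10*. Among genes within 2-fold of the same posterior level, the SD of log2 CPM over the posterior libraries was smaller than that of *Emp1* in 34.6% of 2234 genes, smaller than that of *Tnfaip2* in 15.5% of 3173 genes and smaller than that of *S100a10* in 31.7% of 341 genes. The highest posterior library exceeded the lowest by a factor of 1.18 for *Emp1*, 1.14 for *Tnfaip2* and 1.12 for *S100a10*.

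The proportions between the 3 genes come from the same levels on which the genes were chosen, and are a description only. They differed between the positions for *S100a10* against either other gene, and by less for *Emp1* against *Tnfaip2*. The ratio of *Emp1* to *Tnfaip2* was 1.33 and 1.39 in anterior pools and 1.40, 1.53 and 1.87 in posterior pools. The nearest anterior and posterior ratios, 1.39 and 1.40, were almost equal, so nothing is read from their order. Posterior replicate 3 had the highest ratio, as *Emp1* was highest and *Tnfaip2* lowest there among posterior libraries. *S100a10* exceeded *Emp1* by a factor of 24.3 and 23.9 in anterior pools and of 7.69, 8.11 and 7.34 in posterior pools. It exceeded *Tnfaip2* by a factor of 32.2 and 33.2 in anterior and of 10.8, 12.4 and 13.7 in posterior pools.

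Likeness of profiles was measured as the root-mean-square difference of log2 CPM over the 5 libraries, after each gene was centred on its own mean. The candidates were the 280 other identifiers that the study pairs with a symbol, all of which differ between the positions by the study's own criterion, so the nearest genes share that choice and the 5 libraries. *Emp1* and *Tnfaip2* were 0.18 log2 units apart, against 0.80 between *Emp1* and *S100a10* and 0.70 between *Tnfaip2* and *S100a10*. With replicates this close, the distance mostly restates the difference in fold change, on which the genes were chosen, so nothing is read from it. Nearest to *Emp1* were LOC106737871 (0.09), the carboxypeptidase M gene *Cpm* (0.18), and the transcription factor genes *Ebf2* (0.20), *Tbx2* (0.26) and *Hoxa13* (0.28). Nearest to *Tnfaip2* were *Tbx2* (0.10), LOC106737871 (0.20), *Angpt1* (0.21), which encodes a ligand of the endothelial receptor TIE2, *Sertad2* (0.21) and the protease gene *Prss23* (AMEX60DD049637, 0.22). *Tbx2*, a T-box factor of the posterior limb bud in mouse, had 7.09 ± 0.357 CPM (SD over 2 libraries) in anterior and 29.8 ± 3.76 CPM (SD over 3 libraries) in posterior cells, somewhat below *Tnfaip2* in both. LOC106737871 matched the 2 genes in proportion and not in level, with 0.857 ± 0.0493 CPM (SD over 2 libraries) and 4.68 ± 0.620 CPM (SD over 3 libraries).

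The genes tested that the study's tables name had a median log2 fold change of 0.595, near the 0.71 of *S100a10*. *S100a10* had closer counterparts, and none of them was among the 5 nearest to *Emp1* or *Tnfaip2*. They were *Steap3* (0.05), a metalloreductase gene, *Abca8* (0.07), a lipid transporter gene, the matrix gene *Fn1* (0.07), *Tapbp* (0.08), which encodes the chaperone tapasin, and the laminin chain gene *Lama4* (0.08). *Fn1*, which encodes fibronectin, was the one that exceeded *S100a10* in level, at 786 ± 27.8 CPM (SD over 2 libraries) in anterior and 1312 ± 27.4 CPM (SD over 3 libraries) in posterior cells. Its log2 fold change of 0.74 was close to the 0.71 of *S100a10*.

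The other genes of the S100 and annexin group were taken from a list of 7, *S100a10* included, all with an identifier in the study's tables of genes that differ between the positions. In such a list every gene differs by choice, and its counts describe that choice. Posterior levels were higher for 6 of the 7 and lower for 1, with a median log2 fold change of 1.05 beside -0.02 over all genes tested and 0.595 over the genes tested that those tables name. In edgeR, 1 of the 7 passed a false-discovery rate of 0.01 as higher in posterior cells and 0 as lower, beside 0.12% and 0.134% of all genes tested. With DESeq2, the study's own test, 5 and 1 passed, beside 0.738% and 0.661% of all genes.

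The gene that passed was *Anxa2* (AMEX60DD005352), for annexin A2, the partner of S100A10. It had 8848 and 10433 counts in anterior pools and 25115, 21949 and 25536 counts in posterior pools. The level rose from 201 ± 4.91 CPM (SD over 2 libraries) in anterior to 426 ± 50.1 CPM (SD over 3 libraries) in posterior cells, or 1.08 as a log2 fold change (SE 0.14, adjusted p = 0.00583 in edgeR's quasi-likelihood test). The adjusted p in edgeR was 0.0512, 0.0633 and 0.0333 without posterior replicates 1, 2 and 3. In those fits 5, 2 and 3 genes passed among all genes. *Anxa2* stayed below *S100a10* in every library, but the 2 came closer to each other in posterior cells. The ratio of *Anxa2* to *S100a10* was 0.669 and 0.661 in anterior pools and 0.911, 0.763 and 0.904 in posterior pools, without overlap. Both genes come from the study's calls on these libraries, so the ratios are a description only.

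The remaining S100 genes passed with DESeq2 and not in the main edgeR fit. Without the filter on low counts, *S100a13* passed in edgeR and *S100a11* did not, beside 0.61% of all genes as higher in posterior cells. *S100a11* (AMEX60DD029914), which also encodes an annexin-binding S100 protein, had a lower level than *S100a10*. It was at 9.06 ± 0.952 CPM (SD over 2 libraries) in anterior and 18.8 ± 0.961 CPM (SD over 3 libraries) in posterior cells (adjusted p = 0.138 in edgeR and 0.00947 with DESeq2). *S100a13* (AMEX60DD015002) was at 107 ± 2.33 CPM (SD over 2 libraries) and 190 ± 48.1 CPM (SD over 3 libraries), with an adjusted p of 0.14 in edgeR and 0.00201 with DESeq2, and a posterior SD that came from replicate 1, which had 14386 counts against 9747 and 8491. S100 genes are close relatives, and how reads with several alignments were counted is not stated, so counts could be shared between them or with copies that carry no symbol here. *Ahnak*, for a giant scaffold protein bound by the annexin A2 and S100A10 complex in mammals, was at 46.5 ± 8.38 CPM (SD over 2 libraries) and 96.6 ± 23.4 CPM (SD over 3 libraries), with an adjusted p of 0.0934 in edgeR. *Asic1*, for an acid-sensing channel that S100A10 binds in mammals, was at 2.76 ± 0.469 CPM (SD over 2 libraries) and 9.63 ± 3.47 CPM (SD over 3 libraries), with an adjusted p of 0.16 in edgeR.

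*Plau* was the one gene of the 7 with lower posterior levels. It encodes urokinase, the protease that turns plasminogen, the surface ligand of the S100A10 complex, into plasmin. It had 7065 and 5435 counts in anterior and 4785, 3584 and 3955 counts in posterior pools, or 132 ± 36.2 CPM (SD over 2 libraries) against 72.1 ± 10.3 CPM (SD over 3 libraries). The log2 fold change was -0.87 (SE 0.19, adjusted p = 0.112 in edgeR), and the anterior libraries differed from each other by more than the nearest libraries of opposite position did.

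A second list held 14 genes of the actin cytoskeleton and the membrane cortex, to which the S100A10 and annexin A2 complex attaches, drawn from the same tables. Of these, posterior levels were higher for 12 and lower for 2, with a median log2 fold change of 0.80, which is the same with *Cav3* set to the bound that 3 counts in each anterior library allow. Again 1 passed in edgeR as higher in posterior cells and 0 as lower, beside 0.12% and 0.134% of all genes tested, and 11 and 2 passed with DESeq2, beside 0.738% and 0.661%. The gene that passed was *Capg*, for an actin filament capping protein related to gelsolin. It rose from 226 ± 30.0 CPM (SD over 2 libraries) to 474 ± 6.58 CPM (SD over 3 libraries), a log2 fold change of 1.07 (SE 0.13, adjusted p = 0.0047 in edgeR). Without posterior replicate 1, 2 or 3 it did not pass, in fits where 5, 2 and 3 genes passed among all genes. The large subunit gene of calpain 1, *Capn1*, was at 351 ± 17.6 CPM (SD over 2 libraries) and 533 ± 59.6 CPM (SD over 3 libraries), and the shared small subunit gene *Capns1* at 24.1 ± 2.74 CPM (SD over 2 libraries) and 40.1 ± 2.43 CPM (SD over 3 libraries). Their adjusted p-values were 0.0871 and 0.195 in edgeR. The intermediate filament gene *Synm* and *Arhgap28* were the 2 with lower posterior levels, and neither passed in the main edgeR fit.

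**Figure D3:**
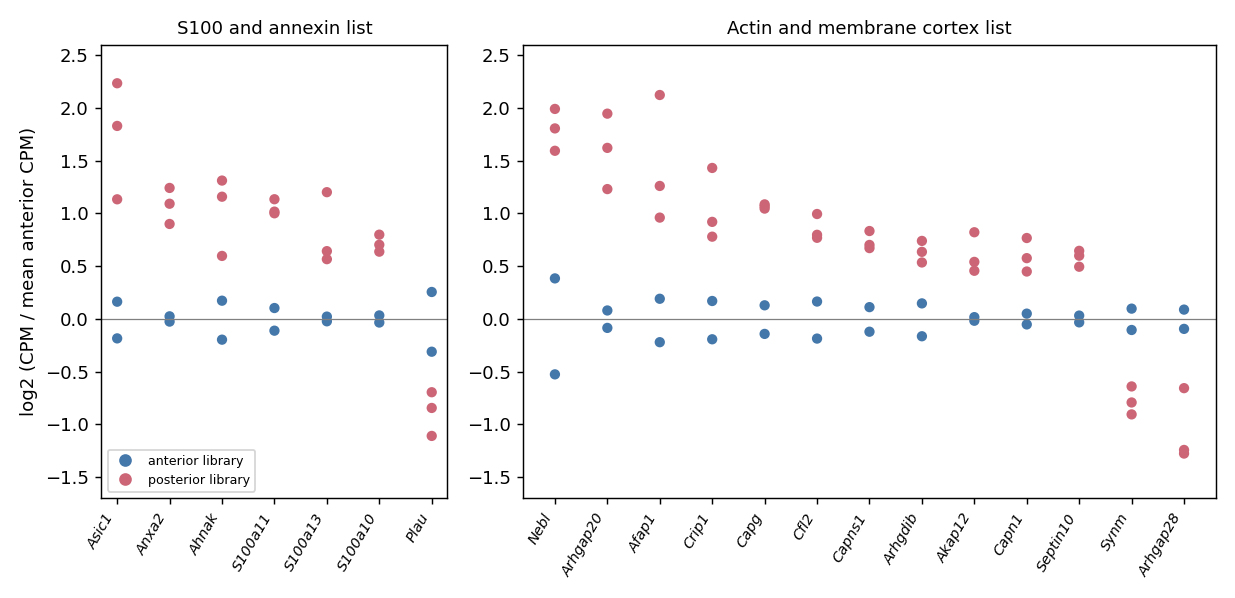
Level of each gene of the S100 and annexin list (left) and of the actin and membrane cortex list (right) in each library, as log2 of CPM over the mean of the anterior libraries (y axis), with anterior libraries in blue and posterior libraries in red. *Cav3* is left out because it had 0 and 1 counts in the anterior libraries. *Plau*, *Synm* and *Arhgap28* lie below the anterior libraries and the other genes above them.

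*Emp1* was set beside other proteins that cross the membrane 4 times. The study's tables pair *Cd82*, a tetraspanin gene, and *Ocln*, for occludin of tight junctions, with an identifier, and *Emp2*, *Emp3* and *Pmp22* were not analysed here. Both paired genes had lower posterior levels, the opposite of *Emp1*. *Cd82* was at 85.9 ± 1.04 CPM (SD over 2 libraries) in anterior and 48.7 ± 2.54 CPM (SD over 3 libraries) in posterior cells (log2 fold change -0.82, adjusted p = 0.0469 in edgeR). *Ocln* was at 107 ± 17.2 CPM (SD over 2 libraries) and 42.4 ± 10.97 CPM (SD over 3 libraries) (log2 fold change -1.33, adjusted p = 0.0259 in edgeR). *Ocln* passed when replicate numbers entered the model as a block (adjusted p = 0.000314) and with DESeq2 (adjusted p = 1.2e-05). It also passed with limma-voom (adjusted p = 0.00702) and without the filter on low counts. *Cd82* passed with DESeq2 (adjusted p = 2.75e-05) and without that filter. As lower in posterior cells, 0.297% of all genes passed with the block, 0.661% with DESeq2, 0.211% with limma-voom and 0.606% without the filter. Neither gene passed in edgeR without posterior replicate 1, 2 or 3 (adjusted p = 0.0367 to 0.281). In those fits 5, 2 and 3 genes passed among all genes.

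Genes numbered next to the 3 were compared as a measure that had no part in their choice. Identifiers of this annotation are numbered, and the 10 before and the 10 after each gene were examined. Positions on the chromosome were not used, so it was not checked that consecutive numbers are adjacent genes. Around *Emp1*, 7 of 20 identifiers had enough counts to be tested, of which 4 had higher and 3 had lower posterior levels, with log2 fold changes of -0.45 to 0.78 and a median of 0.03. Around *Tnfaip2*, 12 of 20 were tested, 5 higher in posterior and 7 in anterior cells, with a median of -0.06. In edgeR 0 of the 7 and 0 of the 12 passed a false-discovery rate of 0.01, beside 0.254% of all genes tested. At an unadjusted p under 0.05 it was 1 and 0, and DESeq2 called 0 and 0. The identifier next in number below *Tnfaip2*, AMEX60DD011093, was at 4.55 ± 1.04 CPM (SD over 2 libraries) and 6.41 ± 0.898 CPM (SD over 3 libraries), far from the 4.38-fold difference of *Tnfaip2*.

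Around *S100a10*, 6 of 20 identifiers were tested, 5 higher in posterior and 1 in anterior cells, with a median log2 fold change of 0.39. Again 0 passed in edgeR, but 2 had an unadjusted p under 0.05, and 2 passed with DESeq2, beside 1.4% of all genes in that fit. The first, AMEX60DD014980, is a very abundant transcript with no symbol in the tables used, at 2786 ± 160 CPM (SD over 2 libraries) in anterior and 3747 ± 234 CPM (SD over 3 libraries) in posterior cells (log2 fold change 0.43, SE 0.09, adjusted p = 0.0888 in edgeR). The other, LOC115077151 (AMEX60DD014985), had 180 and 114 counts in anterior and 805, 1062 and 681 counts in posterior pools (log2 fold change 2.25, SE 0.37, adjusted p = 0.0277 in edgeR). This gene is itself in the study's table of posterior genes. *S100a13* follows 27 numbers after *S100a10*, and in the RefSeq annotation of another assembly, UKY_AmexF1_1, both S100 genes are on the same chromosome arm with 11 protein-coding genes between them.

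**Figure D4:**
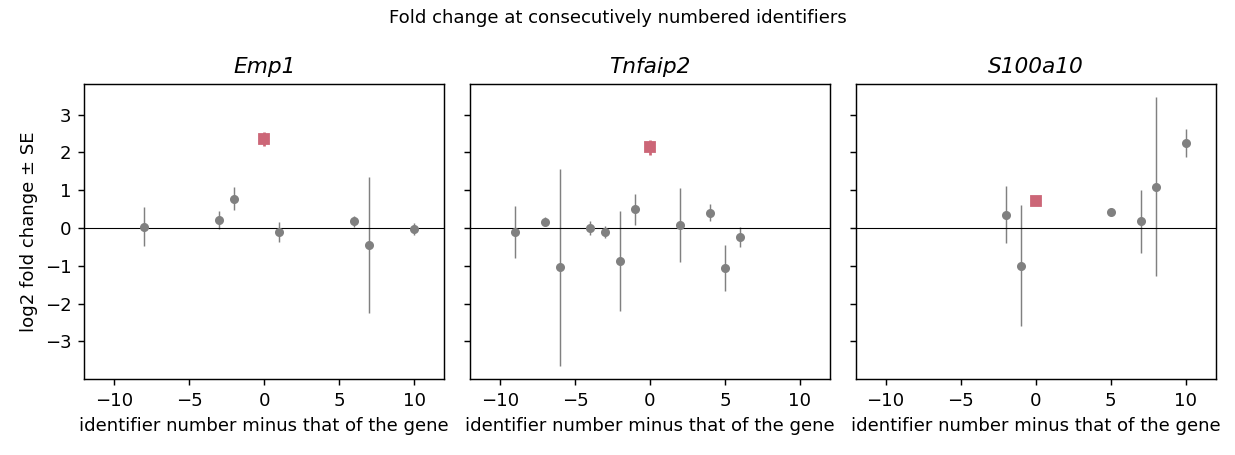
Log2 fold change with its standard error (y axis, posterior over anterior) of the identifiers numbered up to 10 before and after each gene (x axis, difference in number), in grey, with the gene itself as a red square at 0. AMEX60DD011104, at 10 after *Tnfaip2*, is left out because it had 0 counts in both anterior libraries. The neighbours of *Emp1* and *Tnfaip2* lie around 0, below the 2.36 and 2.13 of the genes themselves.

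The 3 genes were set beside markers of connective tissue and of other cells that skin holds. Only genes that the study found to differ between the positions have a symbol here, so these lists cannot show which cells were sorted. Connective tissue genes ranged from *Postn*, abundant in every library, to *Ddr2*, with means of 28.2 CPM in anterior and 12.5 CPM in posterior cells. The 7 of 8 such genes with an identifier, *Postn*, *Fn1*, *Ddr2*, *Col12a1*, *Tnxb*, *Fbln2* and *Fbln5*, summed to 11683 to 13142 CPM in anterior and 7304 to 8345 CPM in posterior libraries. Most of the sum was *Postn*, for the matrix protein periostin, and *Col12a1*, for a collagen chain, whose means went from 8550 to 4766 CPM and from 2561 to 1170 CPM. Posterior levels were lower for 4 of the 7, of which 2 passed in edgeR, and higher for *Fn1*, *Fbln5* and *Tnxb*, of which *Fn1* passed, beside 0.134% and 0.12% of all genes tested. Without posterior replicate 1, 2 or 3, *Postn*, *Col12a1* and *Fn1* did not pass in edgeR. In those fits 5, 2 and 3 genes passed among all genes. *Prrx1* itself was not analysed here. Markers of other cells come from the same tables of genes that differ between the positions, so that their direction is part of that choice.

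The summed epidermal markers were higher in posterior libraries, although the list had members in both directions. Of 9 identifiers for 8 epidermal symbols, 7 had higher and 2 had lower posterior levels, and edgeR called *Krt19* (AMEX60DD038184), *Col17a1* and *Krt5* at a false-discovery rate of 0.01, beside 0.12% of all genes tested. The 2 lower ones were *Ocln* and *Krt18*. With DESeq2 all 9 passed, 7 as higher and 2 as lower, beside 0.738% and 0.661% of all genes. Without posterior replicate 1, 2 or 3, 0 of them passed in edgeR, in fits where 5, 2 and 3 genes passed among all genes. The summed level was 440 to 474 CPM in anterior and 905 to 1194 CPM in posterior libraries, a ratio of the means of 2.21. *Krt17* was at 0 in both anterior libraries, and *Krt18* was at 0 in all posterior libraries. The highest sum was in posterior replicate 1, where among posterior libraries *Tnfaip2* was highest, *Emp1* was in the middle and *S100a10* was lowest.

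All 6 immune markers, which were *Ctss*, *Timd4*, *Arhgdib*, *Rgs10*, *Il4r* and *Sigirr*, were higher in posterior cells, with a summed level of 170 to 199 CPM in anterior and 327 to 382 CPM in posterior libraries. In the main edgeR fit 0 of the 6 passed, 5 passed with DESeq2, and 2 passed with replicate blocks. As higher in posterior cells, 0.12%, 0.738% and 0.326% of all genes passed in these fits. All 6 had an unadjusted p under 0.05 in edgeR. They were chosen from the study's calls on these libraries, so nothing is read from that. The ratio of the mean sums was 1.92. The lists share genes, as *Arhgdib*, and *Nebl* and *Cav3* of the muscle list, are also in the actin and membrane cortex list. Muscle markers had the lowest sums of the cell type lists. Their sums differed between the anterior libraries, so the factor between the mean sums is uncertain and is not ranked against the 3 genes. The 3 identifiers, *Nebl*, *Prkag3* and *Cav3*, summed to 3.32 and 6.42 CPM in anterior and 22.6, 24.1 and 22.4 CPM in posterior libraries, a ratio of the means of 4.73 beside 5.13 for *Emp1* and 4.38 for *Tnfaip2*. *Nebl*, for the nebulin relative nebulette, held most of that sum, at 4.59 ± 1.98 CPM (SD over 2 libraries) and 16.1 ± 2.19 CPM (SD over 3 libraries). *Nebl* alone differed 3.49-fold. In the main edgeR fit 0 of the 3 passed, 3 passed with DESeq2, and *Prkag3* passed with replicate blocks. The shares of all genes are those given for the immune list. All 3 had an unadjusted p under 0.05 in edgeR, from which nothing is read for the same reason as in the immune list.

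Of 4 endothelial and mural markers 2 were higher in posterior cells, and of 2 nerve markers 1 was. From anterior to posterior means, *Angpt1* went from 12.8 to 47.8 CPM and *Cd34* from 18.5 to 37.5 CPM. In the other direction, *Rgs5* went from 31.6 to 12.0 CPM and *Ednrb* from 13.2 to 1.81 CPM. The nerve markers were *Uchl1* (30.2 to 61.3 CPM) and *Ngfr* (43.6 to 20.2 CPM). The sums were 72.8 to 79.3 CPM in anterior and 84.3 to 110 CPM in posterior libraries for the endothelial and mural markers. For the nerve markers they were 69.3 to 78.2 CPM and 78.5 to 86.3 CPM. *Angpt1*, which is also among the profiles nearest to *Tnfaip2*, passed in edgeR (log2 fold change 1.90, adjusted p = 0.00556), beside 0.12% of all genes tested. It did not pass without any 1 of the posterior replicates (adjusted p = 0.0437 to 0.0496 in edgeR). Without posterior replicates 1, 2 and 3, 5, 2 and 3 genes passed among all genes. No other gene of these 2 lists passed in the main edgeR fit. With replicate blocks *Ednrb* also passed as lower (adjusted p = 0.00946), beside 0.297% of all genes as lower in posterior cells. Without the filter on low counts all 6 passed in edgeR, beside 0.61% of all genes as higher and 0.606% as lower in posterior cells. All 6 passed with DESeq2, beside 0.738% of all genes as higher and 0.661% as lower in posterior cells. The 6 come from the study's own calls on these libraries, so these passes follow from that choice. The 1.64-fold difference of *S100a10* was smaller than the ratios of the epidermal (2.21) and immune (1.92) sums. Those of *Emp1* (5.13) and *Tnfaip2* (4.38) were larger than both. The part of epidermal, immune, muscle or endothelial RNA in the values of *Emp1*, *Tnfaip2* and *S100a10* was not tested.

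**Figure D5:**
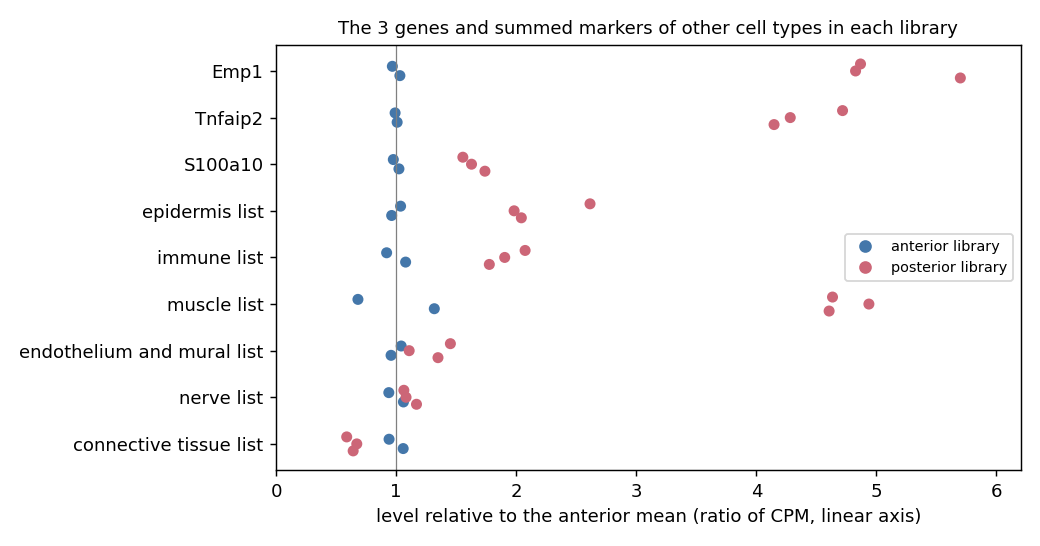
Level of the 3 genes and summed level of the marker lists in each library, each divided by its mean over the anterior libraries (x axis, ratio of CPM, linear), with anterior libraries in blue and posterior libraries in red. In posterior libraries *Emp1*, *Tnfaip2* and the muscle sum lie farthest to the right, with ratios of the means of 5.13, 4.38 and 4.73. The muscle ratio is uncertain, as its sums were 3.32 and 6.42 CPM in the anterior libraries. The connective tissue sum lies to the left of 1.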

How the data were processed

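Counts came from sorted dermal cells of 2 anterior and 3 posterior pools. The authors made QuantSeq 3′ libraries from 20.25 ng of RNA, trimmed reads with Trimmomatic 0.39, aligned them by HISAT2 to the assembly AmexG_v6.0-DD, keeping at most 5 alignments for a read, and tallied reads by gene in featureCounts. The authors deposited raw counts, without normalization. The counting of reads with several alignments is not given in the sources used here, so counts of close relatives are uncertain. No molecular identifiers are described. Total counts per library were 44317956 to 59062548, at which 3 counts equal 0.0508 to 0.0677 CPM, for counting error only.

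Libraries were grouped by their titles. Genes were filtered with filterByExpr, scaled by TMM and fitted with edgeR 4.0.16 (glmQLFit, glmQLFTest) in R 4.3.3 on all 5 libraries with position as the term, and p-values were adjusted over 20875 genes by the Benjamini-Hochberg method. Standard errors are the log2 fold change over the square root of F. Profiles used log2 CPM with a prior count of 2. Symbols come from the study's tables of differing genes, which pair 283 of 306 identifiers. The genes, lists and tests were chosen with earlier results of these data known. Named genes are the 3 genes, those of the lists, the 5 nearest profiles of each gene, and numbered neighbours that passed or carry a symbol. AMEX60DD011093, AMEX60DD011104 and AMEX60DD014980 fall outside this rule and were chosen after their values were seen. Alternatives were DESeq2 1.42.0, limma-voom (limma 3.58.1), other scalings and filters, a replicate block and each library left out. Protein and promoter sequences were not used here. The smallest one-sided p that exact permutation allows with 2 and 3 libraries is 0.1, and no such test was run.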

Additional observations from a re-analysis of the deposited data

How the results depend on the processing

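The direction of *Emp1*, *Tnfaip2* and *S100a10* was the same in all 12 alternatives, and their values stayed within 1 SD of the replicates. As the genes were chosen on this comparison and for close posterior replicates, this is a description only. With the replicate number as a block, the log2 fold changes were 2.28, 2.17 and 0.67. In that fit the block of replicate 3, which exists only for posterior cells, takes up that library. The number of genes past a false-discovery rate of 0.01 moved from 53 to 292 with DESeq2, to 337 without the filter on low counts and to 130 with the replicate block, and ran from 2 to 62 with each library left out. The cause was not tested. With an anterior library left out, the lone anterior sample is assumed to vary like the others. Deviations of same-numbered libraries from their group means had a Pearson's r of 0.0035 for number 1 and -0.048 for number 2 across 20875 genes. With 2 anterior libraries their deviations mirror each other, so these values are not separate checks. They cannot settle whether pools shared animals. The study states no pairs, and the numbers were not taken as pairs in the main fit. The identifiers near *S100a10* that passed went from 0 to 2 with DESeq2. Calls within the marker lists also rose with DESeq2. With each posterior library left out, chosen after seeing the data, 0 epidermal markers passed as higher in posterior cells. In those fits 5, 2 and 3 genes passed among all genes. Low counts limit *Krt17*, *Krt18* and *Cav3*, for which no fold is given.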
